A study of Caenorhabditis elegans with 2 samples.

Results

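Divergent promoters are stretches of genome that lie upstream of 2 protein-coding genes at once, because the genes point away from each other. The regions described here are those of the authors' list for both replicates together whose summit, the position of highest signal that their caller gave, lay within 1 kb upstream of protein-coding transcript starts on both strands. Summits within 100 bp of a tRNA, snoRNA or snRNA gene were left out, which removed 13 of 993 regions. This left 980 of 29978 nuclear regions, 3.27% of them, between the starts of 832 gene pairs. The mitochondrial regions of the list, 22 of its 30000, did not enter.

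The data are chromatin immunoprecipitation followed by sequencing (ChIP-seq) from whole Caenorhabditis elegans of strain OP677, genotype unc-119(tm4063) III; wgIs677, which stably carries CHE-1 with GFP and FLAG fused to its C-terminal end. The antibody was directed against GFP. Late embryos of mixed sex were collected 6 hours after synchronization by egg bleaching, in 2 biological replicates of 1 group, and all carried the transgene. No untagged strain and no second condition was analysed here, so recovery with and without a role of the tagged protein cannot be told apart, and no test between groups was possible. Whole embryos were used, so the cells in which chromatin was recovered are unknown.

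CHE-1, a transcription factor with zinc fingers, gives the ASE taste neurons their identity, where it acts through sites with the core GAAACC or GAAGCC in the promoters of ASE genes. Divergent promoters are common in the compact genome of C. elegans, and many genes that all cells use, such as those of ribosomal proteins, start from them. Regions of open chromatin between such genes can serve both transcription units.

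The windows below are the 10 highest divergent promoter regions on chromosomes II to V, with 50 bp on either side of the summit. They are shown because 8 of them carry a sequence that was frequent in the highest regions. Capitals mark copies of a 2-part element, which is GTGC or GCGC, then 5 to 7 further bases, then TTGC, on either strand. Copies that touch or overlap form a single run of capitals. This element was settled on after many patterns had been tried in these same windows, with the IDR and other members compared, so every count of it is a description. The bases are the plus strand of assembly WBcel235, 5′ to 3′, in the coordinates of build ce11. The upper 5 windows lay at chrIII:10461257-10461357 for ecps-1/atx-2, chrIV:390435-390535 for ears-2/uncp-18, chrIII:4568706-4568806 for mlcd-1/idhg-1, chrII:7200186-7200286 for E04F6.6/pcrg-1, chrIII:5555051-5555151 for nmad-1/hach-1. The lower 5 windows lay at chrIII:4171110-4171210 for rnf-121/C16C10.4, chrII:7708709-7708809 for B0495.9/sre-1, chrIII:10759200-10759300 for K01G5.10/tasp-1, chrV:11610594-11610694 for piit-1/sas-5 and chrIV:17087579-17087679 for snx-13/snr-1.
ecps-1/atx-2: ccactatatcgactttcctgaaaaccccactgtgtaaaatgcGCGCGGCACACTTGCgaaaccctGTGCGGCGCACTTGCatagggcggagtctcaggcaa
ears-2/uncp-18: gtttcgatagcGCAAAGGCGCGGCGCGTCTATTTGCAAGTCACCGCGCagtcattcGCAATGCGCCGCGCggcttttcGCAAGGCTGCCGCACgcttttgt
mlcd-1/idhg-1: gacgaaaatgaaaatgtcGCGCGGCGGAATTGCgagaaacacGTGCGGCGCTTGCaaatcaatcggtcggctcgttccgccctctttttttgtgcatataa
E04F6.6/pcrg-1: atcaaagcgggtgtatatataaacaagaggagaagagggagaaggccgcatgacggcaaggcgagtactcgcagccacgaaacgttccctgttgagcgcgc
nmad-1/hach-1: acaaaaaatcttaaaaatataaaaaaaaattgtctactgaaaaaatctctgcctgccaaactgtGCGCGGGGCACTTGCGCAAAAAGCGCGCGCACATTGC
rnf-121/C16C10.4: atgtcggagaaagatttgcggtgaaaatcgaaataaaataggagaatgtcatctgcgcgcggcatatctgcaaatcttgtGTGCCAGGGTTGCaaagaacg
B0495.9/sre-1: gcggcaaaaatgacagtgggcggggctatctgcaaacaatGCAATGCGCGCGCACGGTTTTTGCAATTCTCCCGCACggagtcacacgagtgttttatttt
K01G5.10/tasp-1: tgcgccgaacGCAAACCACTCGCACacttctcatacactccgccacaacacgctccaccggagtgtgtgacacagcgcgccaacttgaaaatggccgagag
piit-1/sas-5: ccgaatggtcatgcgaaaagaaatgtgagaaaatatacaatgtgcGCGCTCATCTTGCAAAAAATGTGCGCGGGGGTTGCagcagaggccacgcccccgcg
snx-13/snr-1: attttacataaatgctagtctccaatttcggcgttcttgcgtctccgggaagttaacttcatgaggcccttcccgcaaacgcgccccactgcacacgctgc

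The commonest picture among these windows was 2 or more copies on the same strand. At ecps-1/atx-2 both copies read the plus strand and their ends lay 23 bp apart. At mlcd-1/idhg-1, nmad-1/hach-1 and piit-1/sas-5 the distance between plus-strand copies was 22 bp, and at B0495.9/sre-1 that between minus-strand copies was also 22 bp. The window at ears-2/uncp-18 held 4 separate copies, whose minus-strand members were spaced by 23, 22 and 22 bp. The windows of E04F6.6/pcrg-1 and snx-13/snr-1 held no copy.

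Divergent promoter regions were frequent among the highest regions of the list. The authors' IDR set (irreproducible discovery rate, a procedure that keeps regions ranked alike in replicates) held 791 regions, 770 of them nuclear, and these were the highest of the list. Of the 980 divergent promoter regions, 110 were in that set, 11.2% with an exact binomial 95% interval of 9.32 to 13.4. The background was 2.57% of all nuclear regions and 1.63% of those away from tRNA, snoRNA and snRNA genes. In promoters with a start within 1 kb on 1 strand only, called one-sided here, 191 of 7208 regions were in the set, 2.65% (2.29 to 3.05). All such intervals cover counting error over regions only, and the depth of the libraries is unknown. The 2 classes of promoter also differed in distance to a start. Among regions without the 2-part element, the nearer start lay a median of 401 bp from one-sided summits and 171.5 bp from divergent ones. Divergent members were in the set in 12.7% of cases with the nearer start at 301 to 500 bp, and in 3.33% beyond 500 bp. The part of distance in the contrasts between these classes was not tested.

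The 110 regions made up 14.3% (11.9 to 17.0) of the nuclear IDR peaks and 22.96% (19.3 to 27.0) of the 479 nuclear IDR peaks away from tRNA, snoRNA and snRNA genes. The sequence that meets the rule covered 1708 kb, 1.70% of the nuclear genome. Per megabase of that sequence the list held 574 regions and the IDR set 64.4. One-sided promoters held 350 regions and 9.27 IDR peaks per megabase, and the nuclear genome as a whole 299 and 7.68.

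The share of divergent promoter regions was higher among higher ranks by score. Among regions away from tRNA, snoRNA and snRNA genes they were 8 of the 23 with nuclear ranks 1 to 100, 34.8% (16.4 to 57.3), and 32.6% (23.2 to 43.2) of ranks 101 to 300. They were 19.8% of ranks 301 to 770, 10.1% of ranks 771 to 1600 and 5.57% of ranks 1601 to 5000. In the lowest class, from rank 20001, they were 1.94% (1.68 to 2.23). The share of one-sided promoter regions moved over a smaller span, from 42.4% of ranks 101 to 300 to 22.4% in the lowest class.

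**Figure D1:**
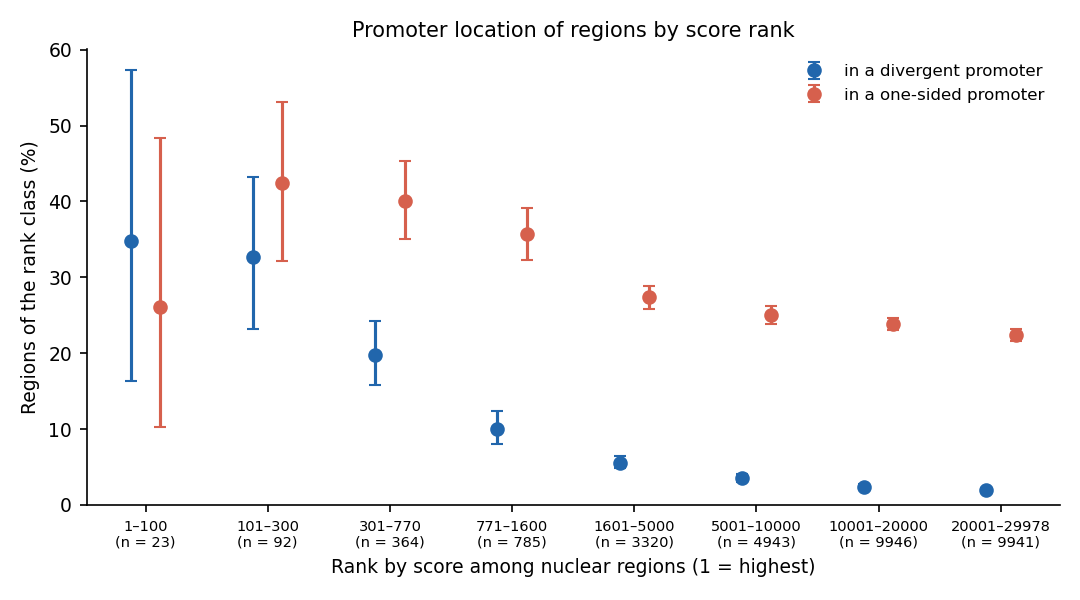
Share of nuclear regions in divergent promoters (blue) and one-sided promoters (red) by rank of the deposited score, away from tRNA, snoRNA and snRNA genes. Points are percentages and bars exact 95% intervals over regions. The divergent share is 34.8% at ranks 1 to 100 and 1.94% from rank 20001.

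The deposited score is the authors' own value, its scale is unstated, and it served here to rank and describe regions. Its median was 59.8 over the 980 divergent promoter regions, with quartiles of 43.9 and 86.4, a lowest value of 32.9 and a highest of 593. The median was 49.0 in one-sided promoters and 47.7 over all nuclear regions. The 110 regions of the IDR set lay between 128 and 593 with a median of 171. The highest divergent promoter region held rank 36 among nuclear regions.

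The highest 20 lay at gene pairs with very different products. None of these 20 summits lay inside a protein-coding gene. This did not hold for all members, because 176 of the 980 and 10 of the 110 in the IDR set had such a summit. Summits inside an exon were 95 of the 980 and 3 of the 110. The highest 20 were all among the highest 791 regions of both replicates. Their replicate scores ran from 143 to 349 in replicate 1 and from 113 to 267 in replicate 2, and the pair ecps-1/atx-2 headed the group. It scored 593 in the joint list, 328 in replicate 1 and 267 in replicate 2. Its summit lay 82 bp before the start of atx-2, which encodes an ataxin-2-like RNA-binding protein, and 756 bp before that of ecps-1. The second, ears-2/uncp-18, scored 565 in the joint list, 349 in replicate 1 and 215 in replicate 2. The starts there are only 92 bp apart, 17 bp from the summit to ears-2, a glutamyl-tRNA synthetase gene, and 75 bp to uncp-18. These 2 regions exchanged their order between the replicates, with ears-2/uncp-18 higher in replicate 1 and ecps-1/atx-2 higher in replicate 2.

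The region at mlcd-1/idhg-1 scored 553 in the joint list, 306 in replicate 1 and 243 in replicate 2, with its summit 41 bp before idhg-1, a subunit gene of isocitrate dehydrogenase. That at nmad-1/hach-1 scored 484 in the joint list, 274 in replicate 1 and 207 in replicate 2. Both regions ranked within the highest 70 nuclear regions of each replicate. At dnj-29/ndua-2 (381, 212 and 170 in the joint list and replicates 1 and 2) the plus-strand gene encodes a complex I subunit. The region at Y22D7AL.10/hsp-60, beside the mitochondrial chaperonin gene, scored 273, 143 and 137, and that at mig-22/mtss-1, beside the gene of the mitochondrial single-stranded DNA-binding protein, 318, 179 and 137.

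Other pairs serve RNA, protein and cell biology. Joint scores were 378 at snx-13/snr-1, beside a gene of the Sm core of spliceosomal snRNPs, and 353 at gei-6/krr-1, beside a gene of small ribosomal subunit assembly. They were 392 at dad-1/tre-1, which joins an oligosaccharyltransferase subunit gene to a trehalase gene, and 384 at K01G5.10/tasp-1, beside a taspase gene. The centriole assembly gene sas-5 lay 93 bp from the summit of piit-1/sas-5, with a score of 381. At simr-1/C06A5.3 (332) the gene of a small RNA pathway protein flanked the region. The remaining pairs were rnf-121/C16C10.4 (473), spe-48/Y51F10.11 (458), B0495.9/sre-1 (404), algn-13/R10D12.13 (317), fbxc-44/C16A11.2 (316) and rpl-15/K11H12.8 (259). Of these, sre-1 is a chemoreceptor gene, but its start lay 945 bp from the summit, against 49 bp for B0495.9.

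A non-coding gene can lie at such a summit even after tRNA, snoRNA and snRNA genes were left out. At E04F6.6/pcrg-1, with scores of 535 in the joint list, 294 in replicate 1 and 239 in replicate 2, the plus-strand gene mrpr-1, the RNA of the RNase MRP enzyme, starts 3 bp before the summit. At dad-1/tre-1 the annotated non-coding gene F57B10.17 spans the summit. Genes of the class ncRNA lay within 100 bp of 9 of the 110 IDR regions, 8.18%, of 7.76% of all 980 and of 6.50% of all nuclear regions. The part of these genes in the scores was not tested. The left-out summits within 100 bp of a tRNA, snoRNA or snRNA gene were in the IDR set in 8 of 13 cases, and those 101 to 200 bp away, which were kept, in 2 of 9.

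Distances from the summit to the gene starts differed little between the IDR regions and the rest at the near side. The nearer start lay a median of 167.5 bp away in the 110 IDR regions, in the other 870 and in all 980. The farther start lay 405.5 bp away in the IDR regions and 474 bp in the others. The summit stood at a median of 32.2% of the distance between the starts in the IDR regions and 30.03% in the others, measured from the nearer start. By distance class the IDR share was 8.39% (4.41 to 14.2) with the nearer start within 50 bp, 15.7% (11.6 to 20.6) at 101 to 200 bp and 3.33% (0.693 to 9.43) beyond 500 bp.

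**Figure D2:**
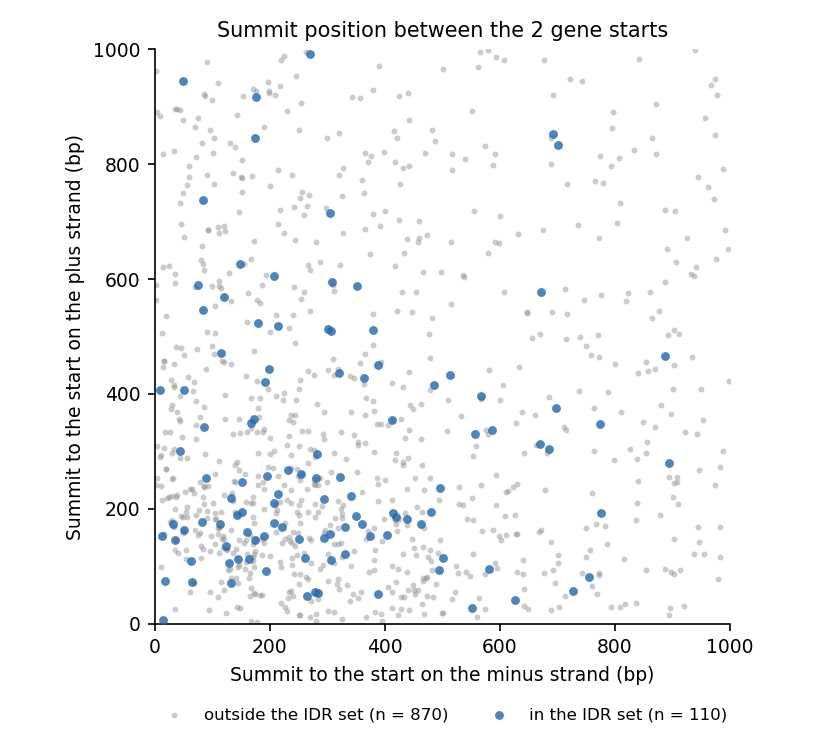
Distance in bp from each summit to the nearest start on the minus strand (horizontal axis) and on the plus strand (vertical axis), for 110 regions in the IDR set (blue) and 870 outside it (grey). The IDR regions are spread along both axes, and few lie far from both starts.

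The density of regions per base differed between classes of distance between the paired starts. The starts lay a median of 658.5 bp apart over all members and 570.5 bp in the IDR set. Where they lay at most 200 bp apart, the rule's sequence held 733 regions and 163 IDR regions per megabase, and at 201 to 400 bp 1274 and 164. The highest density of regions was thus at 201 to 400 bp. At 601 to 800 bp these densities were 567 and 72.6, and at 1501 to 2000 bp 309 and 13.2. Counts per gene pair gave another order. At most 200 bp apart, 272 gene pairs held 27 regions and 6 IDR regions. At 201 to 400 bp 558 pairs held 202 and 26, at 401 to 600 bp 511 pairs held 214 and 28, and at 1501 to 2000 bp 647 pairs held 47 and 2. The share of members in the IDR set was between 12.8% and 13.1% in each class from 201 to 1000 bp, and 4.79% at 1001 to 1500 bp. It was 6 of 27 at 200 bp or less, 22.2% (8.62 to 42.3). The closest starts with an IDR region, at Y59E9AL.36/nbet-1, lay 20 bp apart. Beside the edge of the rule, 3 of 89 members whose farther start lay 900 to 1000 bp from the summit were in the IDR set, with a median score of 53.4. Just outside, at 1001 to 1100 bp, 5 of 102 regions were, with a median of 46.3.

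Most gene pairs with such a promoter carried no listed region, and most of those that did carried 1. Of 3128 gene pairs with such a promoter, 26.6% held a listed region and 107, 3.42% (2.81 to 4.12), an IDR region. Of the 832 pairs with a region, 688 had 1 and 144 had 2 or 3. In 3 pairs 2 IDR regions overlapped, by 126 bp at dnj-29/ndua-2, 148 bp at piit-1/sas-5 and 269 bp at epc-1/Y111B2A.12, so these do not count as separate sites. A further limit is that 193 of the 980 members overlapped a higher region of the list, 4 of them in the IDR set. The X chromosome held 5.73% of the sequence that meets the rule and 46 members, 4.69%, of which 1, at mboa-7/git-1, was in the IDR set. Of the 479 nuclear IDR peaks away from tRNA, snoRNA and snRNA genes, 96 were on X.

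The core of the known CHE-1 site stood in few of these windows. GAAACC or GAAGCC stood on either strand in 4 of 110 windows of 101 bp around IDR summits, 3.64% (1.00 to 9.05), in 7.59% of windows outside the IDR set and in 8.56% of all nuclear windows. With the highest regions of 1 replicate's own list in place of the IDR set, the core was in 6 of 96 windows without replicate 1, 6.25% (2.33 to 13.1), and in 5 of 109 without replicate 2, 4.59%. The reversed letters CCAAAG or CCGAAG were in 5.45%, 6.09% and 6.64%. The 4 IDR regions with the core were at ecps-1/atx-2, gly-7/mrpl-39, rtfo-1/K09G1.1 and F29A7.6/F29A7.3. One-sided IDR windows held the core in 9 of 191 cases, 4.71% (2.18 to 8.76). The windows of the IDR regions had a median of 47.5% G and C bases, against 38.6% in the other members. The part of this difference in the shares of words was not tested.

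Some other 6-letter words differed more, and some less. CGCACA was in 22.7% (15.3 to 31.7) of IDR windows, 5.29% of the other members and 3.60% of all nuclear windows, but also in 24.1% of one-sided IDR windows. CCGCCC was in 20.9% of IDR windows, 47 of the 870 others and 3.83% of all nuclear windows, and TGCGTC in 14.5%, 6.55% and 3.67% in the same order. In one-sided IDR windows CCGCCC was in 13.1% and TGCGTC in 11.5%. TATAAA, the letters of a TATA box, was in 6.36% of IDR windows against 7.93% of all nuclear windows. TTTTTT was in 32.7% against 35.1%. CACGTG was in 0.909% against 2.17%, TGATAA in 2.73% against 6.23% and GAGAGA in 13.6% against 9.40%. GTTCGA, part of the inner promoter of tRNA genes, was in 1.82% against 3.96%. Words added after the windows had been compared were GCGCAC (30.9% of IDR windows, 6.55% of other members, 2.99% of all nuclear windows), TTGCAA (29.1%, 7.70% and 4.58%) and GCCGCA (25.5%, 4.14% and 3.16%). One-sided IDR windows held GCGCAC in 15.7%, TTGCAA in 12.6% and GCCGCA in 15.7%. The word CATACACT, added in the same way, was in 3 IDR windows, at K01G5.10/tasp-1, rpl-15/K11H12.8 and rpl-20/Y17G9B.5.

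The 2-part element joined these words. It stood in 39 of 110 IDR windows, 35.5% (26.6 to 45.2), in 39 of the 870 other windows, 4.48% (3.21 to 6.08), and in 1.80% of all nuclear windows. In one-sided promoters it was in 33 of 191 IDR windows, 17.3% (12.2 to 23.4), and in 1.84% of the windows outside the IDR set. With the letters of each part reversed the share in divergent IDR windows was 7.27%, and 0.837% of all nuclear windows. With the parts in the other order it was 22 of 110 IDR windows, 13.0% to 28.7% by the interval, and 1.54% of all nuclear windows. Of these 22 windows, 10 also held 2 or more separate copies of the element itself and 4 held none.

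Where copies came in pairs, they mostly lay 21 to 23 bp apart. Of the 110 IDR windows, 20 held at least 2 separate copies, 18.2% (11.5 to 26.7), as did 10 of the other 870, 1.15%, and 60 of all 29978 nuclear windows. The same held for 16 of 191 one-sided IDR windows, 8.38% (4.86 to 13.25). A single copy stood in 19 of the divergent IDR windows and in 29 of the other 870. In windows of 201 bp around the IDR summits, 24 of 25 neighbouring copies on a strand ended 21 to 23 bp apart, 17 of them at 22 bp. Around one-sided IDR summits 19 of 20 did, and around the members outside the IDR set 6 of 9. The centre of a copy lay a median of 18 bp from an IDR summit. Of 29 IDR windows with copies on 1 strand only, 12 read towards the nearer gene start.

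The share of windows with the element followed the score. It was 16 of the 20 highest members, 80.0% (56.3 to 94.3), then 36.7% of ranks 21 to 50 among members, 12 of the 60 at ranks 51 to 110 and 7.78% of ranks 111 to 200. It was 2.50% at ranks 401 to 600 and 2.89% below. The median G and C content was 51.5% in the highest of these classes and 36.6% in the lowest. Members without a copy were in the IDR set in 71 of 902 cases, 7.87% (6.20 to 9.82), those with 1 copy in 19 of 48, 39.6% (25.8 to 54.7), and those with 2 or more in 20 of 30, 66.7% (47.2 to 82.7). Median scores in these classes were 58.0, 92.2 and 190. This was not particular to divergent promoters. One-sided regions with 2 or more copies were in the IDR set in 16 of 27 cases, 59.3% (38.8 to 77.6), with a median score of 167.6. Those with 1 copy were in 17 of 135 cases, 12.6%, and those without in 2.24%.

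The members are given next by base composition. The element was chosen by comparing these same IDR and other windows, so its higher share among IDR members in each class follows from that choice, and the part of base composition was not tested. Among windows with 50% or more G and C bases, 17 of 25 members with a copy were in the IDR set, 68.0% (46.5 to 85.1), against 27 of 143 without, 18.9% (12.8 to 26.3). Among windows under 40%, the numbers were 4 of 12, 33.3% (9.93 to 65.1), and 19 of 486, 3.91% (2.37 to 6.04). At 45 to under 50% they were 9 of 25 and 13 of 127, the latter 10.2%.

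**Figure D3:**
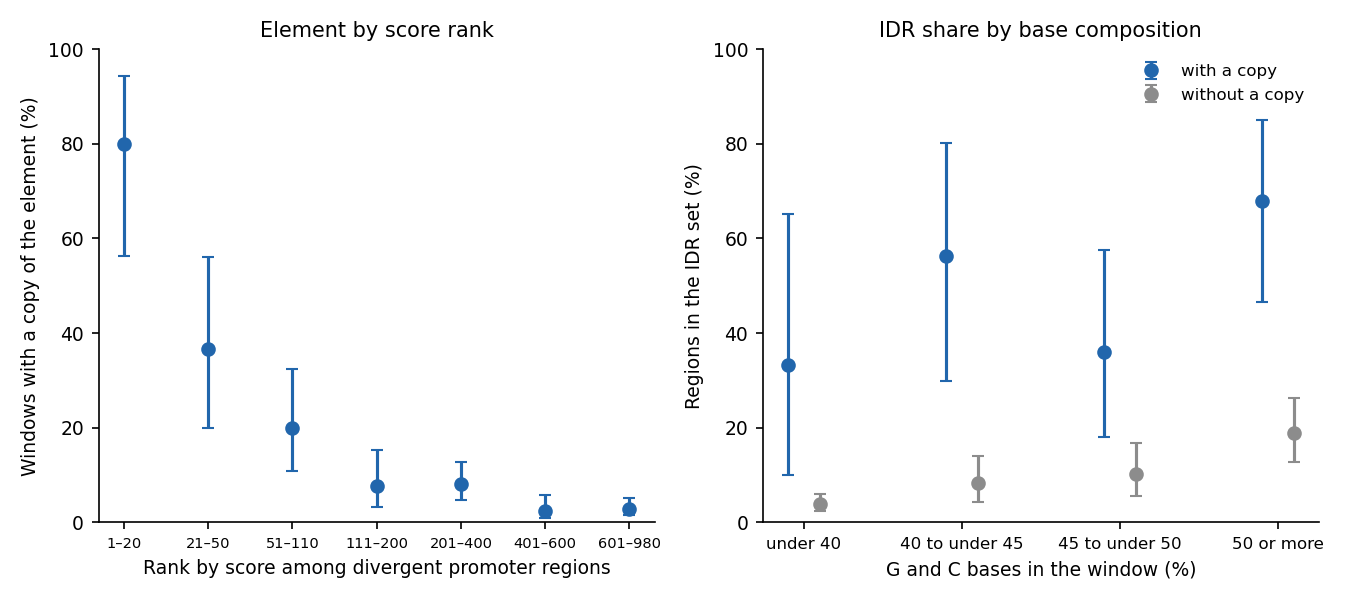
Left, share of 101-bp windows with a copy of the 2-part element by score rank among divergent promoter regions. Right, share of members in the IDR set by G and C content, with (blue) and without (grey) a copy. Bars are exact 95% intervals. The left panel runs from 80.0% to 2.89%, and in each composition class the point with a copy lies above the point without.

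Most paired copies in divergent promoters lay at a listed region. Across the nuclear genome there were 10129 copies of the element, 101 per megabase, and 333 in the sequence that meets the rule, 195 per megabase. Neighbouring copies 21 to 23 bp apart occurred at 161 places, 35 of them in divergent promoters. Of these 35, 31 lay within 100 bp of a summit of the list, 88.6% (73.3 to 96.8), and 23 within 100 bp of an IDR summit, 65.7% (47.8 to 80.9). In one-sided promoters 20 of 83 lay that near an IDR summit, 24.1% (15.4 to 34.7), and elsewhere 0 of 43, an interval that reaches up to 8.22%. The element and this spacing were chosen in windows around these same summits, so these shares are a description and do not test nearness to them. The list also held more regions per megabase in divergent promoters, 574 against 350 in one-sided ones.

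Members with paired copies were mostly high in both replicates. Of the 20 IDR members with copies 21 to 23 bp apart, 19 were among the highest 791 regions of both replicates, against 37 of the 71 IDR members without a copy. Median joint scores were 317 in IDR members with 2 or more copies and 152 in those without. The element was chosen in these same windows, so this contrast is a description, and the part of the joint score in it was not tested. The exception among the 20 was F49C12.9/rpn-7, beside a proteasome subunit gene. It scored 168 in the joint list, 106 in replicate 1 and 61.3 in replicate 2. Among the others, haf-6/smg-2, beside a helicase gene of nonsense-mediated decay, scored 256 in the joint list, 149 in replicate 1 and 101 in replicate 2. At the lower end, Y116A8C.9/arf-6 scored 148, 83.9 and 70.2 in the same order. None of the 10 members with 2 or more copies outside the IDR set was among the highest of both replicates, and of all 870 members outside the set 19 were, 2.18%. The highest of them, F09E5.11/bmy-1, scored 109 in the joint list, 55.2 in replicate 1 and 52.2 in replicate 2, and hsp-6/C37H5.5, beside a mitochondrial heat shock protein gene, scored 68.5, 39.6 and 38.6.

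All 110 IDR members overlapped a region in both replicates, and 72 were among the highest 791 of both, 65.5% (55.8 to 74.3). Replicate 1 alone had 95 and replicate 2 alone 84 of them among its highest. For one-sided IDR peaks the share in both was 58.1%, and for the nuclear IDR peaks away from tRNA, snoRNA and snRNA genes 58.7%. The median distance between the joint summit and that of the replicate was 9.0 bp in replicate 1 and 8.5 bp in replicate 2. Of all 980 members, 728 overlapped a region in both replicate lists, and across these 728 regions Spearman's rho of the replicate scores was 0.61. Across the 110 IDR members it was 0.68. Both describe regions that share the 2 libraries and the joint call, and overlapping members can share a replicate region.

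**Figure D4:**
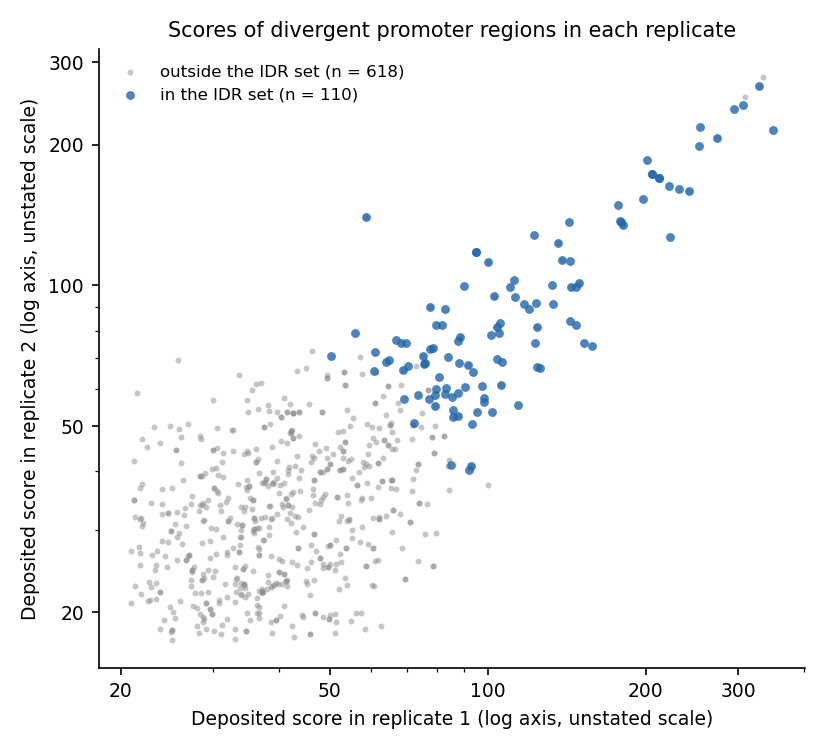
Deposited score of the highest overlapping region in replicate 1 (horizontal) and replicate 2 (vertical), both on log axes, for the 728 divergent promoter regions found in both lists. Blue points are the 110 IDR members and grey points the 618 others. The IDR members gather towards the upper right of the cloud. Some members outside the IDR set also lie there, such as lev-9/mom-1 at 309.6 in replicate 1 and 252.7 in replicate 2. The IDR member larp-1/wip-1 lies apart at 58.6 in replicate 1 and 140 in replicate 2.

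Some members stood far apart in rank between the replicates. At larp-1/wip-1 the region held nuclear rank 1538 in replicate 1 and 155 in replicate 2. At C47E8.4/hsp-90 the region held rank 481 in replicate 1 and 3333 in replicate 2. The summit there lay inside the annotated gene of the cytosolic HSP90 chaperone, 194 bp before one of its transcript starts. At rsp-2/rsp-1, between 2 splicing factor genes, the ranks were 2730 and 545. With each replicate's own list, 109 of 982 members were among its highest 791 in replicate 1, 11.1%, and 96 of 919, 10.4%, in replicate 2, against 2.56% and 2.57% of all nuclear regions.

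Of the 5778 genes with a divergent promoter, 3.70% flanked an IDR region there, and the lists of genes of general cell functions are read against that background. Among cytosolic ribosomal protein genes 8 of 49 were, 16.3% (7.32 to 29.7), and 41 of 49 flanked a listed region, against 28.5% of the 5778. The 8 were rpl-15, rps-26, rps-20, rps-19, rpl-20, rpl-5, rps-23 and rps-1, with joint scores from 131 at rps-1 to 259 at rpl-15. A gene was counted whether or not its start was the nearer to the summit. The ribosomal protein gene was the nearer at rpl-15 and rps-1. The other gene of the pair was nearer at rps-26 (407 bp, against 50 bp to tmem-107), rps-20, rps-19, rpl-20, rpl-5 and rps-23. At rpl-15/K11H12.8 the replicate scores were 143 in replicate 1 and 113 in replicate 2. For nuclear pore and transport genes the count was 4 of 25, 16.0% (4.54 to 36.1), with npp-6 highest at 210, followed by ima-1, an importin alpha gene, npp-14 and ran-3. Of these, npp-6 was the nearer gene of its pair, and ima-1, npp-14 and ran-3 were the farther. For mitochondrial ribosomal protein genes it was 4 of 30, 13.3% (3.75 to 30.7), with mrpl-39 highest at 179.

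Chaperone genes flanked an IDR region in 4 of 34 cases, 11.8% (3.30 to 27.5), namely dnj-29 (381), hsp-60 (273), cct-8 (162) and hsp-90 (130). Splicing and RNA-binding genes did in 3 of 26, with snr-1 at 378 and rsp-1 and rsp-2 sharing the region of 130. Replication and cell cycle genes did in 2 of 28, cdk-9 at 255 and mcm-10 at 246. In the lists with 1 such gene it was eif-3.D among 18 translation factor genes (152), rpn-7 among 24 proteasome genes (168) and taf-4 among 15 polymerase and general factor genes (139). The summit was nearer the listed gene at dnj-29, hsp-90, cdk-9 and taf-4. It was nearer the other gene of the pair at hsp-60, cct-8, snr-1, mcm-10, eif-3.D and rpn-7. The respiration list, taken by symbol, had 0 of 19, an interval up to 17.6%. It does not hold every gene of the respiratory chain: ndua-2 (381) and mev-1 (152), a complex II subunit gene chosen after its value was seen, flanked IDR regions and are not in it. The list of histone genes had 0 of 66, up to 5.44%, although 14 of the 66 flanked a listed region. The highest of those, his-67/his-68, scored 98.3.

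**Figure D5:**
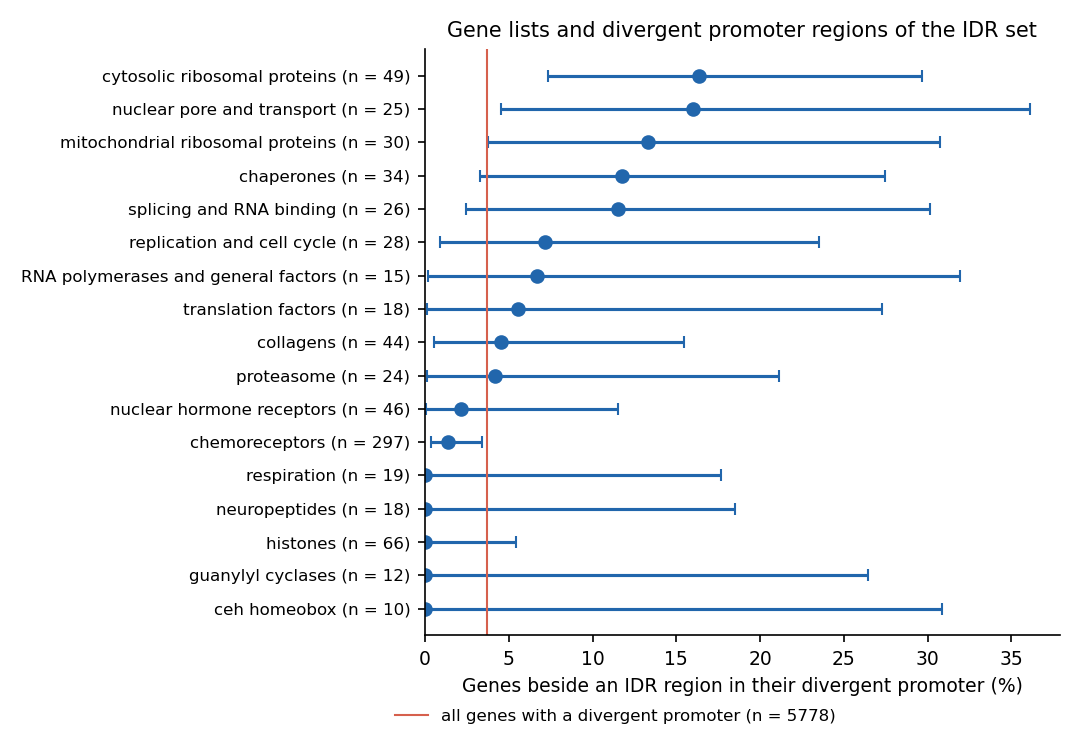
Share of the genes of each list with a divergent promoter that flank an IDR region there, with exact 95% intervals. Lists with at least 10 such genes are drawn, and the red line marks 3.70% of all 5778 genes. Cytosolic ribosomal protein genes stand at 16.3% and chemoreceptor genes at 1.35%.

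Among the lists of genes of differentiated cells, only the chemoreceptor list had an interval that ended below the background of 3.70%. The intervals of the other lists included it, so their counts do not set them apart from it. Chemoreceptor genes flanked an IDR region in 4 of 297 cases, 1.35% (0.368 to 3.41), with sre-1 the highest, followed by sri-5 (258), srh-16 (196) and srz-42 (140), and each shares its region with a second gene. Collagen genes did in 2 of 44, col-38 (145), which shares its region with rpl-5, and col-71 (141). Among nuclear hormone receptor genes nhr-142 (141) did, 1 of 46. The counts were 0 of 18 for neuropeptide genes, an interval up to 18.5%, 0 of 12 for guanylyl cyclase genes, up to 26.5%, and 0 of 10 for ceh homeobox genes, up to 30.85%. Pan-neuronal genes had 0 of 1, up to 97.5%. The list of tubulin and actin genes, which is not one of differentiated cells, had 0 of 4, up to 60.2%. Of 25 ASE identity genes, che-1 included, 5 had a divergent promoter, and none of these flanked a listed region, an interval up to 52.2%.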

How the data were processed

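The authors deposited lists of regions for each of 2 biological replicates and for both together, and an IDR-thresholded set. The deposited score of a region is the authors' value against a control, on an unstated scale. The sources used here do not name an aligner, a caller or an IDR threshold, and the read depth is unknown. Lists in build ce10 and the text notes were not used here. All ce11 coordinates lay within the chromosomes of WBcel235.

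Summits were placed against transcript starts of protein-coding genes in Ensembl release 115. Shares have exact (Clopper-Pearson) 95% intervals. Regions overlapped when they shared at least 1 bp. Motifs were sought on both strands in 101 bp around each summit. No test was made. The 20 highest members and the highest member of each gene list with an IDR member were named. Members and lists were chosen with earlier results of these data known. The 2-part element, its spacing and 4 words were chosen after the windows had been seen. The steps were tested on simulated data. Alternatives changed the reach, starts, exclusions, windows, overlap, number of highest regions and replicate. Python 3.11.15, numpy 2.4.6, pandas 2.3.3, scipy 1.17.1 and matplotlib 3.10.9 were used.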

Additional observations from a re-analysis of the deposited data

How the results depend on the processing

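Of 73 alternatives computed, 49 moved a value by less than its interval, replicate spread or 1.5 times. A reach of 500 bp gave 528 members, 72 of them in the IDR set, 13.6% of members, 9.35% of nuclear IDR peaks and a median score of 66.6. A reach of 2 kb gave 2047 members, 6.94% in the IDR set, 18.4% of nuclear IDR peaks, 2.64% of gene pairs and a median of 52.4. With 0.5 times as many highest regions, 50 members qualified, 5.10% of members and 1.57% of pairs, and 34.5% of IDR members were among the highest of both replicates. With 2 times as many these values were 187, 19.1%, 5.82% and 95.5%. Windows of 25 bp either side gave 0.909% with the CHE-1 core, 13.6% with CGCACA and 24.5% with the element, and 100 bp gave 10.0% and 31.8% for the first pair. Without replicate 1 the nearer start lay a median of 139 bp from the summit, and without replicate 2, 163 bp. The element's alternatives were added with the data in view, and its share was otherwise 27.3% to 36.6%, or 44 of 110 regions with 100 bp. The cause of these moves was not tested, beyond the longer or shorter stretch searched. No paired analysis was possible because there is 1 group and no test. Unknown depth and a score of unstated scale limit every comparison of levels.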
